A study of Homo sapiens with 5 samples.

Results

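The genes described here are 38 members of the Hippo pathway: the MAP4K and TAO kinases, the MST and LATS core kinases with their scaffolds, the coactivators YAP1 and WWTR1 (TAZ), the TEAD transcription factors, proteins that restrain them, and the secreted targets CCN1 and CCN2. They were picked by gene symbol from a table of 13822 Ensembl genes, and all 38 had a row in it. The list was drawn up with the difference between the 2 siRNA groups already known, so the differences of the members are given as descriptions and not as tests.

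RH4 is an established alveolar rhabdomyosarcoma cell line, a muscle-lineage tumour cell. The cells received 30 nM of either a control siRNA (si-SCR, n = 3) or an siRNA directed at the back-splicing junction of circVAMP3, a circular RNA of the VAMP3 gene (si-circVAMP3, n = 2). Both groups were transfected with the same reagent, and poly-A+ RNA of whole cell lysates was sequenced. The schedule was also shared, with 24 h up to the change of medium and 24 h from then to harvest. The replicates were described by the study as biological; a single siRNA was used for the knock-down and a single cell line as the model.

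The Hippo pathway is a kinase relay that holds back growth. Upstream kinases and membrane scaffolds switch on the MST kinases (STK3, STK4) and LATS kinases (LATS1, LATS2), and LATS phosphorylates YAP1 and WWTR1, which then stay out of the nucleus. When the kinases are off, both coactivators enter the nucleus, bind TEAD factors on DNA and switch on genes such as CCN1 and CCN2. In skeletal muscle, YAP1 and TEAD factors are known for roles in myoblast growth and differentiation.

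Of 13 muscle and rhabdomyosarcoma markers, 11 had a row in the filtered table and the myogenic regulators MYF5 and MYF6 had none. In si-SCR cells MYOD1 stood at 102 ± 15.7 FPKM (SD, n = 3), MYOG at 168 ± 16.2 and desmin (DES) at 277 ± 24.3, and TFAP2B, a gene known as a marker of fusion-positive rhabdomyosarcoma, at 24.3 ± 0.638. The si-SCR means of the others were 229 FPKM for FGFR4, 112 for CHRNA1, 17.5 for NOS1 and 9.47 for OLIG2. They were lower for FOXO1 (7.55 FPKM), PAX3 (2.33 FPKM) and CDH3 (1.05 FPKM). Between the groups 1 of the 11 was called in limma, MYOG, which was lower after si-circVAMP3. By adjusted p alone 2 were lower (MYOG and FOXO1) and 0 higher, at an unadjusted p under 0.05 4 were lower and 0 higher, and the median log2 difference was -0.13. Over all genes tested 2.69% were called lower and 1.07% higher. The shares were 15.8% and 14.4% by adjusted p alone, and 21.5% and 21.1% by unadjusted p. The part of these markers in the differences given here was not tested. FPKM is scaled to the length of the gene and the size of the library, so levels of different genes can be set side by side. Of 8 markers of blood, endothelial, epithelial and liver cells, 7 had no row in the filtered table and PECAM1 lay between 0.0777 and 0.153 FPKM. VAMP3, whose gene-level value in poly-A+ RNA reflects the linear mRNA and not the circle, read 36.4, 35.4 and 37.4 FPKM in si-SCR and 29.4 and 30.2 in si-circVAMP3. Its log2 difference was -0.29 ± 0.0432 (SE; limma, adjusted p = 0.00502), under the limit on size that calls required. The circle itself has no value in these data, so the knock-down could not be checked directly from them. By qRT-PCR in RH4 cells, the study reported a strong loss of the circle and a smaller, significant loss of the linear mRNA.

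One control library stood somewhat apart. Across the 12423 genes tested, Pearson's r of log2 values was 0.997 between si-SCR replicates 1 and 2 and 0.997 between both si-circVAMP3 replicates, but 0.993 and 0.995 between si-SCR replicate 3 and the other two controls. Between the groups r ran from 0.985 to 0.988. The values of the members that passed the limits for a call are therefore also given without that library.

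A gene was called when limma, fitted to log2(FPKM + 0.5) over all genes with at least 0.5 FPKM in at least 2 samples, gave a Benjamini-Hochberg adjusted p under 0.05 and an absolute log2 difference over 0.58. Of the 38 members, 37 entered the fit; AMOT, an angiomotin that binds YAP1, was left out at 0.314 to 0.538 FPKM. DLG5, MAP4K4, TNIK and TEAD4 fell after si-circVAMP3 and no member rose, with 33 not called. Over all genes 3.76% were called, 2.69% lower and 1.07% higher; since the members were chosen with this contrast known, nothing is read from their share. Without the limit on size, 5 members were lower and 4 higher (30.2% of all genes, 15.8% lower and 14.4% higher), and at an unadjusted p under 0.05 in the same limma fit 6 were lower and 7 higher (42.6% of all genes, 21.5% lower and 21.1% higher). The median log2 difference was -0.0070 over the 37 members and 0.0065 over all genes tested. In whole-culture RNA, less RNA per cell and fewer cells that hold it cannot be told apart.

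**Figure D1:**
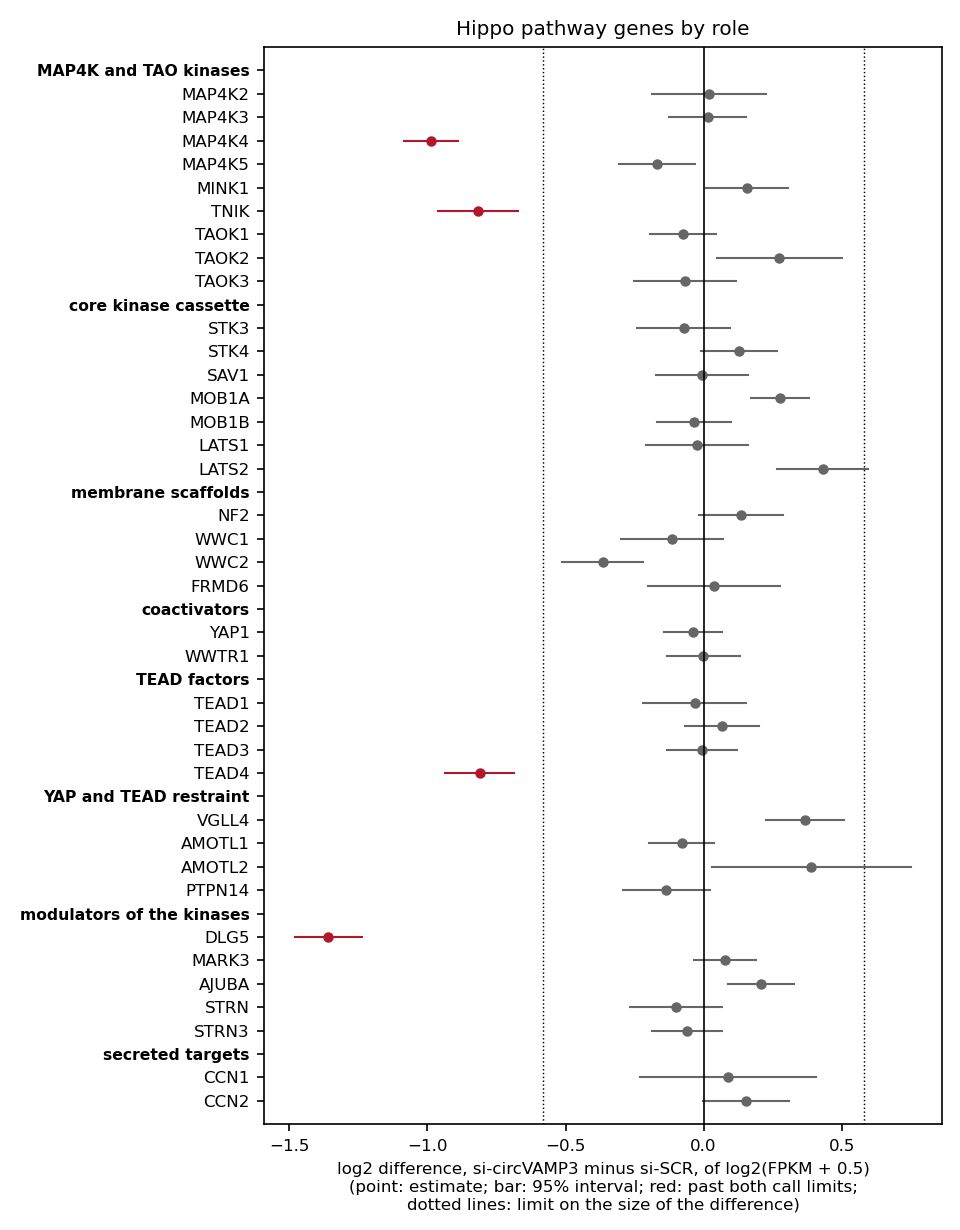
Log2 difference between si-circVAMP3 (n = 2) and si-SCR (n = 3) for the 37 Hippo genes tested, grouped by role, with 95% intervals from limma; dotted lines mark the limit of 0.58. DLG5, MAP4K4, TNIK and TEAD4 lie beyond the lower limit, and the other 33 points lie between -0.36 and 0.43.

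In control cells the members spanned a wide range of levels. MAP4K4 was the most abundant at 47.9 FPKM, followed by MOB1A at 23.7, AMOTL1 at 22.2, TEAD2 at 19.6 and YAP1 at 18.8. The median member stood at 5.90 FPKM (38 members) and the median tested gene at 5.88. AMOT, at 0.484 FPKM, was the lowest. FRMD6 (0.741 FPKM) and WWC1 (0.868 FPKM), both scaffolds at the cell membrane, came next.

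Among the kinases that act above MST and LATS, 2 of 9 fell, against 2.69% of all genes tested. Nothing is read from this count. MAP4K4, a kinase able to phosphorylate LATS directly, read 47.5, 47.8 and 48.4 FPKM in si-SCR and 24.5 and 23.4 FPKM in si-circVAMP3. The groups were far apart and the replicates tight, and the knock-down mean was 49.9% of the control mean (log2 difference -0.99 ± 0.0407 SE, and -0.98 without si-SCR replicate 3). TNIK, a close paralog that also serves as a kinase in Wnt signalling, read 6.06, 6.18 and 6.55 FPKM against 3.37 and 3.32. It stood at 53.3% of the control mean, a log2 difference of -0.82 ± 0.0609 (-0.79 without si-SCR replicate 3).

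MINK1, the third kinase of the same group, was not called. It read 4.86, 4.83 and 4.50 FPKM in si-SCR and 5.46 and 5.21 in si-circVAMP3, so the groups did not overlap at a log2 difference of 0.16. As a share of the summed FPKM of the 3 paralogs, MINK1 went from 8.03% ± 0.402 (SD, n = 3) to 16.4% ± 0.0609 (n = 2), MAP4K4 from 81.3% ± 0.0551 to 73.4% ± 0.140, and TNIK from 10.6% ± 0.354 to 10.3% ± 0.201. Their sum was 58.9 ± 0.480 FPKM in control cells and 32.6 ± 0.982 in knock-down cells, with most of the gap in MAP4K4.

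The remaining MAP4K and TAO kinases were not called. MAP4K2 (log2 difference 0.02, 95% interval -0.19 to 0.23) and MAP4K3 (0.02, -0.13 to 0.16) overlapped between groups. MAP4K5 read 5.02, 5.01 and 5.25 FPKM against 4.39 and 4.56, a difference of -0.17 that lay under the limits although the groups were apart. TAOK1, TAOK2 and TAOK3, which phosphorylate the MST kinases, had log2 differences of -0.07, 0.27 and -0.07. For TAOK2 the lowest control was si-SCR replicate 3, at 4.42 FPKM against 5.49 and 5.40 in the others.

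**Figure D2:**
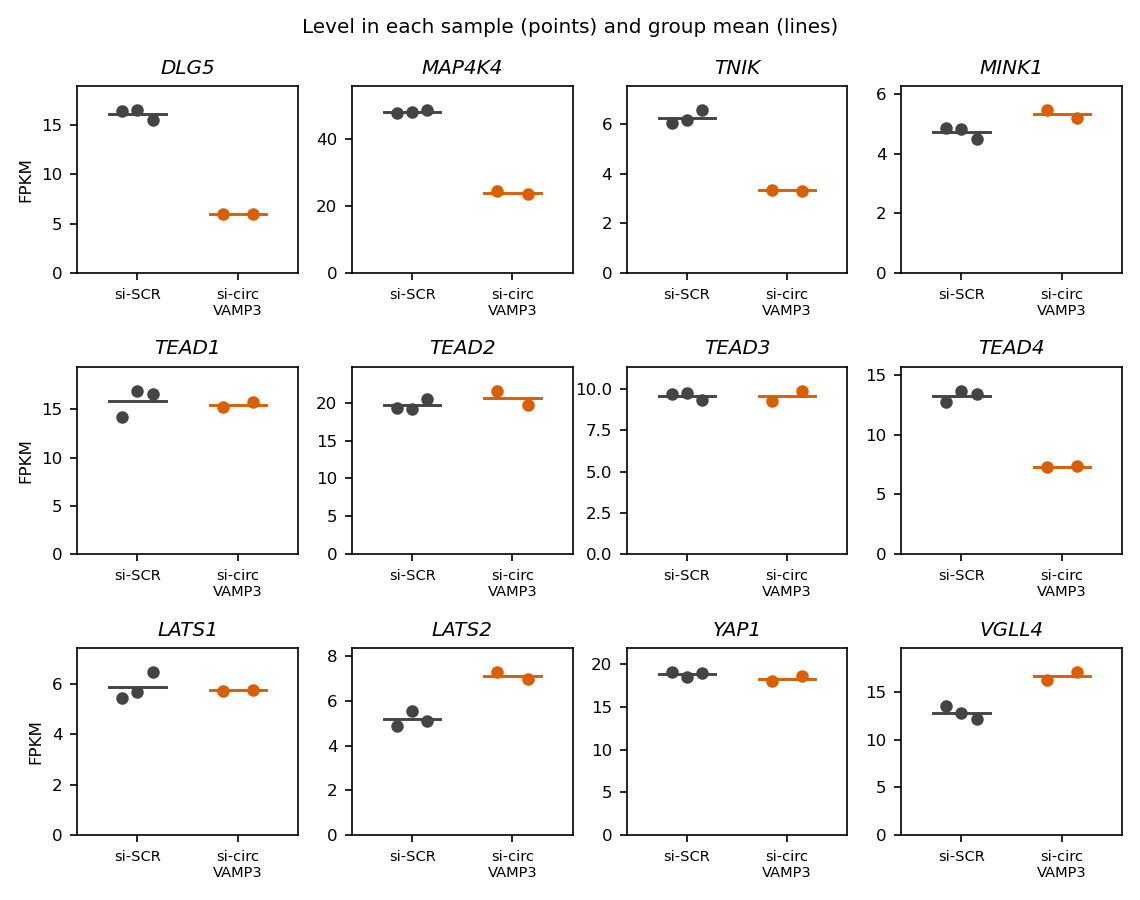
FPKM of 12 Hippo genes in each sample, with a line at each group mean and every vertical axis starting at 0 (si-SCR n = 3, si-circVAMP3 n = 2). DLG5, MAP4K4, TNIK and TEAD4 are lower in both si-circVAMP3 samples, whereas MINK1, TEAD1, TEAD2 and TEAD3 are not.

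None of the 7 members of the core cassette was called in limma. At an adjusted p under 0.05 alone 2 were higher, and the same 2 of 7 at an unadjusted p under 0.05. Over all genes tested 14.4% were higher by adjusted p and 21.1% by unadjusted p. LATS2, one of the kinases that phosphorylate YAP1, read 4.86, 5.55 and 5.09 FPKM in si-SCR and 7.28 and 6.997 in si-circVAMP3. The groups were apart, with a mean of 138% of control, and the log2 difference of 0.43 (95% interval 0.27 to 0.60) passed the limit on adjusted p but not on size. Its paralog LATS1 read 5.46, 5.69 and 6.46 FPKM against 5.72 and 5.77, overlapping fully. LATS2 thus made up 46.9% ± 2.67 of the summed LATS FPKM in control cells and 55.4% ± 0.835 in knock-down cells.

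MOB1A, an activating partner of LATS, was the second of these genes. It read 23.1, 23.6 and 24.3 FPKM against 29.2 and 28.4, or 122% of the control mean, and its log2 difference was 0.28 ± 0.0440. MOB1B, its near-identical paralog, overlapped between the groups (97.5% of control). The MST kinases and their scaffold lay close to control, with STK4 at 109%, STK3 at 93.6% and SAV1 at 99.5% of the si-SCR mean. STK4 supplied 89.5% ± 0.657 of the summed MST FPKM in control cells.

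Of the membrane scaffolds that bring the kinases together, none was called in limma. By adjusted p alone 1 of 4 was lower (15.8% of all genes), and by unadjusted p 1 of 4 (21.5% of all genes). WWC2, a relative of KIBRA, was that gene: it read 3.82, 3.97 and 3.84 FPKM in si-SCR and 2.95 and 2.85 in si-circVAMP3, a mean of 74.8% of control. NF2 (merlin), which recruits LATS to the membrane, had a log2 difference of 0.14 (-0.02 to 0.29), WWC1 (KIBRA) of -0.11 (-0.30 to 0.07) and FRMD6 of 0.04 (-0.20 to 0.28).

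The coactivators themselves were at similar levels in all 5 samples. YAP1 read 19.0, 18.5 and 18.9 FPKM in si-SCR and 18.0 and 18.6 in si-circVAMP3, and WWTR1 read 10.9, 10.4 and 10.0 against 10.2 and 10.6. Both overlapped between the groups. The 95% interval of the log2 difference was -0.14 to 0.07 for YAP1 and -0.13 to 0.13 for WWTR1, so a change of the size seen for MAP4K4 lay outside both. YAP1 made up 64.4% ± 0.987 of their summed FPKM in control cells and 63.7% ± 0.0120 in knock-down cells.

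Among the 4 TEAD factors, the DNA-binding partners of YAP1, only TEAD4 was called, against 2.69% of all genes called lower. It read 12.7, 13.6 and 13.4 FPKM in si-SCR and 7.26 and 7.39 in si-circVAMP3. Both knock-down samples lay well under all controls, at 55.3% of the control mean (log2 difference -0.81 ± 0.0521, and -0.80 without si-SCR replicate 3). TEAD1, TEAD2 and TEAD3 overlapped between the groups, with 95% intervals of -0.22 to 0.16, -0.07 to 0.20 and -0.13 to 0.12. TEAD2 was the most abundant of them in control cells, at 33.7% ± 1.20 of the summed TEAD FPKM. TEAD4 went from 22.7% ± 0.270 of that sum to 13.8% ± 0.258, and from the third place among the TEAD genes to the last, below TEAD3. The summed level went from 58.4 ± 2.21 to 53.0 ± 0.325 FPKM.

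**Figure D3:**
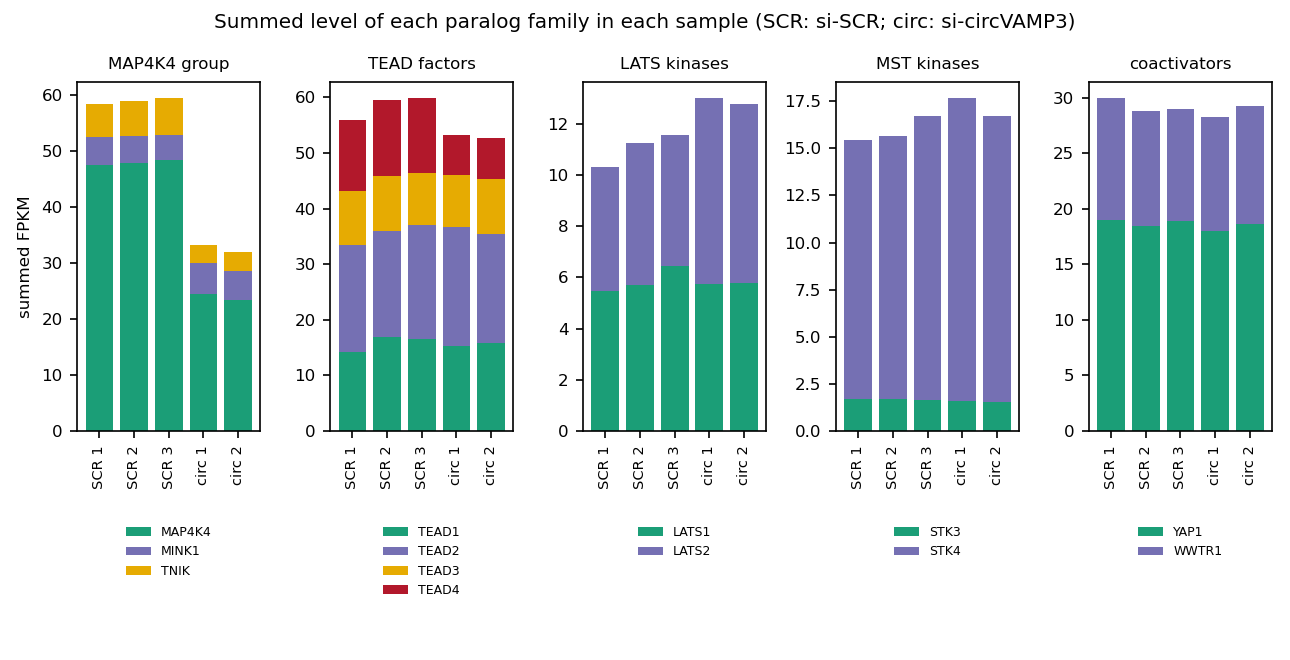
Summed FPKM of 5 paralog families in each of the 3 si-SCR and 2 si-circVAMP3 samples, stacked by gene, each panel on its own axis from 0. The MAP4K4 group drops from 58.9 to 32.6 FPKM on average, TEAD4 shrinks within the TEAD stack, and the coactivator stack stays between 28.2 and 30.0 FPKM.

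The proteins that restrain YAP1 and TEAD gave 1 gene past the limit on adjusted p in limma and none past both limits. At an unadjusted p under 0.05, 2 of 4 were higher. Over all genes 14.4% were higher by adjusted p and 21.1% by unadjusted p. VGLL4, which competes with YAP1 for TEAD, read 13.5, 12.8 and 12.1 FPKM in si-SCR and 16.2 and 17.03 in si-circVAMP3. The groups were apart, at 130% of the control mean and a log2 difference of 0.37 (0.23 to 0.51). AMOTL2, an angiomotin and itself a known YAP1 target, read 3.91, 4.26 and 2.85 FPKM against 4.57 and 5.27. Its difference of 0.39 had a wide interval (0.03 to 0.75) and was 0.24 without si-SCR replicate 3, the lowest control. AMOTL1 and the phosphatase PTPN14, which both bind YAP1, had differences of -0.08 and -0.14.

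DLG5, a junctional scaffold that binds MST kinases together with the kinase MARK3, had the largest log2 difference of the 37 members. It read 16.4, 16.5 and 15.5 FPKM in si-SCR and 5.95 and 6.02 in si-circVAMP3. The knock-down samples stood at 37.1% of the control mean, a log2 difference of -1.36 ± 0.0504 (-1.39 without si-SCR replicate 3). MARK3 read 14.5, 15.3 and 14.5 FPKM against 15.4 and 15.8 and was not called. AJUBA, a LIM protein that inhibits LATS, passed the adjusted p alone, at 116% of control (log2 difference 0.21 ± 0.0498). The striatins STRN and STRN3, scaffolds of the STRIPAK phosphatase that switches MST off, stood at 92.2% and 95.7% of control and were not called.

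The secreted targets gave no call (limma; 0 of 2 also at an unadjusted p under 0.05). CCN1 read 7.12, 8.17 and 6.12 FPKM in si-SCR and 6.76 and 8.47 in si-circVAMP3, and the groups overlapped. CCN2 read 3.88, 4.24 and 3.99 against 4.43 and 4.66, slightly apart, with an interval of -0.0029 to 0.31. In all, the groups did not overlap for 23 of the 37 members tested, against 58.4% of all genes tested, from which nothing is read either.

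The other genes of the pathway were counted over 5 lists of 98 genes that are not members, of which 73 were tested. Of these 3 fell and none rose in the limma fit, against the same background; at an adjusted p under 0.05 alone 14 were lower and 12 higher, and at an unadjusted p under 0.05 17 and 15 (over all genes 15.8% and 14.4% for the adjusted limit, 21.5% and 21.1% for the unadjusted one). The effector regulators gave 2 of the 3 among 22 tested, with 8 lower and 4 higher by adjusted p alone and 9 and 4 at an unadjusted p under 0.05. ZYX (zyxin), a focal adhesion LIM protein, read 30.1, 29.7 and 27.0 FPKM against 19.0 and 17.5 (log2 difference -0.65 ± 0.0638, adjusted p = 0.00122 in limma). VGLL2, a muscle TEAD cofactor, read 5.02, 4.23 and 3.27 FPKM against 2.01 and 2.52 (-0.75 ± 0.165, adjusted p = 0.0172 in limma), with wide scatter among the controls, and its call was lost without si-SCR replicate 2 (-0.73) and without either si-circVAMP3 replicate (-0.61 and -0.88).

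RASSF5, a binding partner of MST kinases, was the third and lay on the limit on size. It read 0.618, 0.562 and 0.402 FPKM against 0.170 and 0.199 (log2 difference -0.58 ± 0.116, adjusted p = 0.0126 in limma), or 35.0% of the control mean. At this low level the log2 difference moved with the pseudocount, to -1.13 with 0.1 and -0.36 with 1, and was -1.03 after rescaling to TPM. Its call was lost when either si-circVAMP3 replicate was left out (-0.55 and -0.61), while without si-SCR replicate 1 or 2 it fell short of the filter on low values. Of the 3 genes, ZYX alone was called without si-SCR replicate 2 and without either si-circVAMP3 replicate; without si-circVAMP3 replicate 1, BTRC, a ubiquitin ligase subunit short of the limit on size with all 5 libraries (-0.51), was called as well. The most abundant effector regulator, YWHAE, a phosphoserine-binding adaptor that retains YAP1 in the cytoplasm, was at 97.0% of control and not called. Its paralogs YWHAQ (67.7% of control, log2 difference -0.56, limma adjusted p = 0.00037), YWHAZ (76.7%, -0.38, adjusted p = 0.00150) and YWHAB (77.6%, -0.36, adjusted p = 0.00256), singled out after their values were seen, passed the limit on adjusted p but not on size, while YWHAG (103%) and YWHAH (100.1%) passed neither. RASSF3, the most abundant of the 20 upstream and polarity genes tested, was at 101%; of these 20, 4 were lower and 3 higher by adjusted p alone, and 6 and 4 at an unadjusted p under 0.05.

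The remaining lists held no call in limma. Among 16 STRIPAK genes, 1 was lower and 2 higher by adjusted p alone, and 1 and 3 at an unadjusted p under 0.05; PPP2CA, the phosphatase subunit and most abundant of them, stood at 104% of control. Among 6 NDR kinases and partners, 1 was lower and 3 higher by adjusted p alone, with the same counts unadjusted. STK38, a relative of LATS and the most abundant of these, read 11.7, 12.2 and 12.3 FPKM against 16.8 and 17.6 (log2 difference 0.49, adjusted p = 0.00121 in limma), short of the limit on size. None of 9 further YAP1 and TEAD target genes passed even the adjusted p alone, and 1 was higher at an unadjusted p under 0.05; ASAP1, the most abundant, was at 97.5% of control.

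The sequences of the siRNA and of the transcripts were then set side by side, since siRNAs are known to be able to lower mRNAs that pair only with the seed, a short stretch near the start of the guide strand. This comparison was chosen after the values had been seen and is a description only. The strand listed by the study reads in the sense of VAMP3: without its overhang of 2 bases it joins 8 letters of the end of exon 4 to 11 letters of the start of exon 3. The strand that was loaded is not given in the sources used here; with the opposite strand as guide, the seed lies at its bases 2 to 8, and the 7 letters GUGGACA in an mRNA pair with it. Capitals mark these bases in both strands, 5′ to 3′.
siRNA as listed: caucaucggugGUGGACAuuu
opposite strand: aUGUCCACcaccgaugaug

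The 7 letters occurred in the canonical transcript (GENCODE v44, GRCh38) of 13 of the 37 members tested, and of 31.2% of the 11064 tested genes with a coding transcript. All 4 members that fell were among the 13, and 9 that were not called were too. Over all these coding genes, 73.6% of those called lower and 30.2% of those not called held the letters. The reverse complement, UGUCCAC, occurred in 8 members and in 22.3% of all these genes. With the adjoining letter (GUGGACAU, which contains the 7 letters) 4 members remained, MAP4K4, TEAD4, DLG5 and TEAD1, against 10.0% of all genes. The matches in the members that fell, and in TEAD1, which was not called, are given in windows of 19 bases aligned to the siRNA, with the 7 letters in capitals.
MAP4K4 coding: caaaaagucugGUGGACAu
MAP4K4 3' UTR: ugugacgauauGUGGACAa
TNIK 3' UTR, first: cugccuugucuGUGGACAa
TNIK 3' UTR, next: uggaugcugauGUGGACAa
TEAD4 coding: accucgaagccGUGGACAu
DLG5 coding, first: ugaaggaugacGUGGACAu
DLG5 coding, next: uugucacuaaaGUGGACAa
DLG5 coding, last: caucaaccucaGUGGACAg
TEAD1 coding: ugcuugaaucaGUGGACAu
TEAD1 3' UTR, first: ccucagaauguGUGGACAg
TEAD1 3' UTR, next: aaucucggcugGUGGACAg

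Each of these matches lay within 1 exon. In MAP4K4 (chr2:101696850-101894690, plus strand) the coding match was at chr2:101698111-101698117 and shared a run of 10 letters with the siRNA, the longest among these 11 matches, and the 3' UTR match was at chr2:101891769-101891775. TNIK (chr3:171058414-171460408, minus strand) held both matches in its 3' UTR, at chr3:171063632-171063638 and chr3:171061738-171061744, each sharing a run of 7 letters. TEAD4 (chr12:2959330-3040676, plus strand) held 1 coding match, at chr12:3021913-3021919, with a run of 8. DLG5 (chr10:77790791-77926755, minus strand) held 3 coding matches, at chr10:77853482-77853488, chr10:77830245-77830251 and chr10:77829360-77829366, with runs of 8, 7 and 7.

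Matches were also held by members that were not called. TEAD1 (chr11:12674421-12944737, plus strand) held as many matches as DLG5, at chr11:12902009-12902015, chr11:12941132-12941138 and chr11:12942560-12942566, with runs of 8, 7 and 9. Its log2 difference was -0.03. MAP4K2 and AMOTL1 held 2 each at 0.02 and -0.08. LATS2, AMOTL2, CCN1, TAOK1, WWC1 and PTPN14 held 1 each, at 0.43, 0.39, 0.09, -0.07, -0.11 and -0.14. In MAP4K2, AMOTL1, LATS2 and WWC1 the longest run shared with the siRNA was 8. Of the members not called, 24 had no match in their canonical transcript, MINK1, TEAD2 and TEAD3 among them. Members with a match had a median log2 difference of -0.08 and those without one of 0.0070. Of the 5 members lower by adjusted p alone, WWC2 held none. Among the other pathway genes 16 of 73 held a match, and 7 of the 14 that were lower by adjusted p alone: RASSF5, DCHS1, LIMD1, NEDD4L, YWHAB, YWHAQ and YWHAZ, but not ZYX or VGLL2. Of the 12 that were higher 1 did, DLG4. Over all coding genes the shares were 52.9% of those lower and 17.6% of those higher by adjusted p. The linear VAMP3 transcript held 2 coding matches, 1 of them sharing a run of 12 letters with the siRNA. The part of these shared letters in the differences was not tested.

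**Figure D4:**
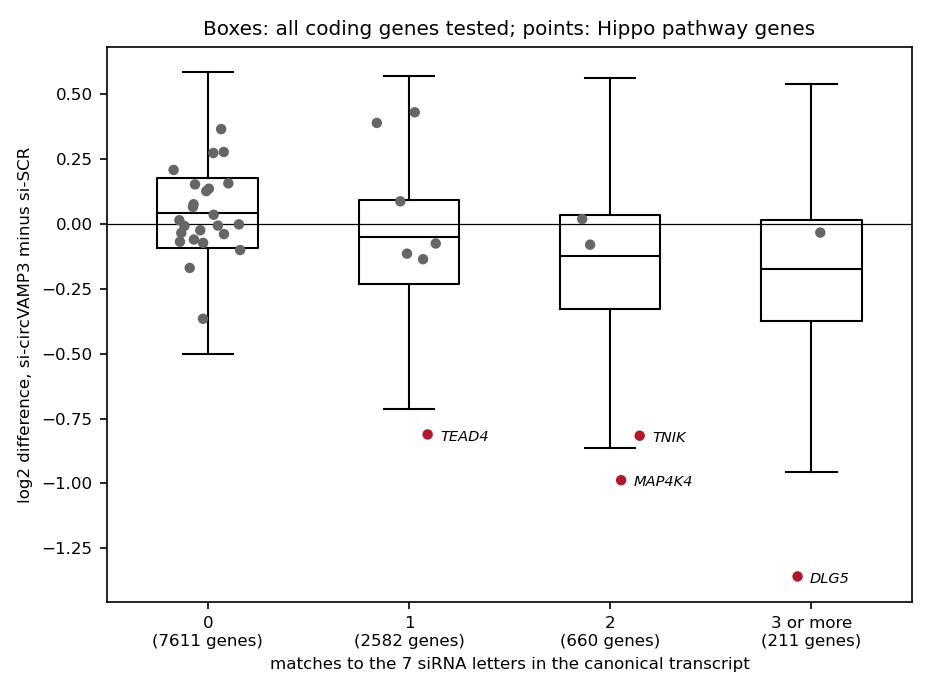
Log2 difference against the number of matches to the 7 letters in the canonical transcript, for 11064 genes (boxes: median and quartiles; whiskers: furthest value within 1.5 times the box height) and for the 37 Hippo genes (points, jittered sideways; red: called). The 4 called members lie at 1, 2, 2 and 3 matches, and the box medians are 0.04, -0.05, -0.12 and -0.17 for 0, 1, 2 and 3 or more matches.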

How the data were processed

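The authors trimmed reads with Trimmomatic, aligned them to GRCh38 with STAR 2.5.2b, counted them per Ensembl gene on the reverse strand with htseq-count, removed genes of low CPM and deposited gene-level FPKM computed with edgeR; whether library sizes were normalized is not given in the sources used here. The deposited FPKM gave no whole reads for single genes and the low genes were already gone, so the depth of each library was not recovered from them, and the study gives only an average over samples; no counting interval is given.

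From these values log2(FPKM + 0.5) was fitted with limma 3.58.1 (R 4.3.3; intensity trend in eBayes, no covariates, Benjamini-Hochberg over all 12423 genes), tested on simulated data. The limits on adjusted p (0.05) and size (0.58) follow the study's methods. Fold changes on this scale understate those of low genes. Symbols were matched by Ensembl ID (13783 of 13822). The text names all members, every called gene of the other lists and the most abundant gene of each such list, and FOXO1, genes called only under an alternative, others of the YWHA family and genes with matching letters, chosen after their values were seen. Members and lists were chosen with earlier results of these data known. The siRNA sequence came from the study's oligonucleotide list, and transcripts and positions from GENCODE v44, 1 canonical transcript per gene, which may not be the isoform these cells use; the authors used an earlier annotation of the same build. Alternatives covered the pseudocount, the filter, the scaling, the trend, the limit on size, a replicate block and each library left out.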

Additional observations from a re-analysis of the deposited data

How the results depend on the processing

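DLG5, MAP4K4, TNIK and TEAD4 were called lower under each of the alternatives run, with log2 differences of -1.42 to -1.29, -1.02 to -0.96, -0.89 to -0.74 and -0.85 to -0.77. The count over all genes (467, of which 334 lower and 133 higher) was 717 (514 and 203) with a pseudocount of 0.1, 750 (551 lower) after rescaling to TPM, which also moves the filter and the pseudocount relative to the values, and 3756 (1963 and 1793) with no limit on size. With no limit on size, 9 members were called, 4 of them higher. The other pathway genes called went from 3 to 5, 6 and 26 under those alternatives, and to between 1 and 3 with a library left out: 1 without si-SCR replicate 2 and 1 without si-circVAMP3 replicate 2. Leaving out 1 library moved the members' median difference between -0.045 (without si-circVAMP3 replicate 2) and -0.0054. This median was 0.014, above 0, after centring on the median of all genes and -0.026 after rescaling to TPM. Where a si-circVAMP3 library was left out, the lone sample was assumed to vary like the controls. RASSF5 also lost its call with a pseudocount of 1 (-0.36), after centring on the median (-0.56) and with a filter on mean FPKM, which removed it. For the 37 members, RASSF5, VGLL2, ZYX and VAMP3, 521 of 528 values under the alternatives that keep the limit on size stayed on their side of the limits, 7 lost a call and none reversed. Calls were gained by DCHS1 and SMAD7 (pseudocount of 0.1, TPM), FRY (TPM) and BTRC (without si-circVAMP3 replicate 1), and with no limit on size by AJUBA, LATS2, MOB1A, VGLL4 and WWC2 among the members. With all 5 libraries SMAD7 stood at 215% of the si-SCR mean (log2 difference 0.50), DCHS1 at 65.0% (-0.49) and FRY, below the filter, at 50.7%. Searching 6 letters in place of 7, chosen after seeing the data, gave 32 of 37 members with a match (72.3% of all genes), and 8 letters gave 4 (10.0%). A replicate block called 488 genes and 4 members and rested on 4 samples, since si-SCR replicate 3 has no partner; same-numbered samples correlated at -0.15 and -0.031 in their deviations, so the numbers were not taken as pairs. Only 2 knock-down libraries, 1 siRNA and a depth not known for each library limit these values.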

Other observations

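Across the whole table, the 7 letters GUGGACA were more common in genes called lower than in the rest. They occurred in the canonical transcript of 217 of 295 coding genes called lower (73.6%), of 21 of 116 called higher (18.1%) and of 3215 of 10653 not called (30.2%). The density was 2.84 matches per 10 kb in genes called lower, 0.841 in genes called higher and 0.985 in those not called. It was higher in both parts of the transcript: 3.77 against 1.47 per 10 kb of coding sequence and 2.25 against 0.596 per 10 kb of 3' UTR, for genes called lower and not called. The reverse complement, UGUCCAC, occurred in 21.7% of genes called lower and 22.3% of those not called. The letters CGAUGAU, which would pair with the seed of the listed strand, occurred in 6.44% and 6.86%.

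The share of genes called lower was 1.02% with no match, 5.19% with 1, 9.39% with 2 and 9.95% with 3 or more. The median transcript length was 2998 bases in genes with no match and 7885 in those with 3 or more. The shares are also given by transcript length, in 3 classes of like size. With at least 1 match, 8.89%, 6.98% and 4.80% were called lower in the shortest, middle and longest class, and with none 1.13%, 0.923% and 1.00%. These are counts from the same contrast that made the calls, with no test; the part of the letters in the differences was not tested.

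MYOG, a muscle regulatory gene, was the 1 called gene among 11 muscle and rhabdomyosarcoma markers tested (log2 difference -0.76 ± 0.0810, limma, adjusted p = 0.00157). It read 175, 179 and 149 FPKM in si-SCR and 101 and 96.6 in si-circVAMP3, so the groups were apart. FOXO1, one partner of the fusion genes of this tumour type, was also lower by adjusted p alone (log2 difference -0.26, limma, adjusted p = 0.0242). The 11 log2 differences had a median of -0.13, and MYOD1, at 0.20 with overlapping groups, was the 1 above 0. Over all genes tested 2.69% were called lower and 15.8% were lower by adjusted p alone.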
